A study of Mus musculus with 4 samples.

Results

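The genes described here are 42 markers of dividing cells, 20 that act in DNA replication during S phase and 22 that act in G2 phase and mitosis, out of 31053 gene rows in the matrices of 4 mouse bone marrow libraries. The members were taken by name from standard lists of cell cycle genes and not by a cut on their values, though earlier results of these data were known. All 42 had a row in every library. Bone marrow of the femur and tibia, with red blood cells depleted, was measured cell by cell with the 10x Genomics 3′ chemistry, which tags every mRNA it captures with a unique molecular identifier (UMI). All mice were C57/B6 and 12 months old by the labels. TWT had wild-type IL6, mDia1 and miR146a alleles (IL6+/+, mDia1+/+, miR146a+/+), DKO lacked mDia1 and miR146a with IL6 intact (IL6+/+, mDia1-/-, miR146a-/-), TKO lacked all of these (IL6-/-, mDia1-/-, miR146a-/-) and IL-6 KO lacked IL6 alone (IL6-/-, mDia1+/+, miR146a+/+). The study compared them to ask what the loss of the cytokine IL-6 does to the marrow of DKO mice, a model in which loss of mDia1 and miR146a in every cell of the body leads to leukemia. Each genotype gave 1 library and no source used here says how many mice it came from, so no test between genotypes was possible, every difference stands without a replicate check, and all intervals are 95% intervals for counting error only.

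A cell that divides copies its DNA in S phase and separates the copies in mitosis. The E2F transcription factors switch on most replication genes before S phase, and the DREAM and MuvB complexes act on many mitotic genes through a short promoter element called CHR, often beside CCAAT boxes bound by the factor NF-Y. In bone marrow, division is concentrated in progenitors and in immature erythroid, neutrophil and B cells, while mature neutrophils and most mature lymphocytes have left the cycle.

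The promoters of the S and the G2/M members differ in how often they hold these elements, and 8 of them are printed because they carry the elements most plainly or because the gene recurs in the results. Windows from RefSeq (GRCm38.p6), 250 bases before to 50 bases after the gene start, were found for 36 of the 42 members, with the first used for the 2 that had more than 1. No window was matched for Mcm4, Gins2, Rfc2, Ccna2, Tpx2 and Aurkb. An E2F word (TTGGCGC or TTGCCGC or TTCGCGC or TTCCCGC on either strand) stood in 12 of 17 S windows (70.6%) and 4 of 19 G2/M windows (21.1%), against 9.69% of all 27025 gene windows. A CHR word (TTTGAA or TTCGAA on either strand) stood in 3 of 17 S windows (17.6%) and 13 of 19 G2/M windows (68.4%), against 19.4% of all. A CCAAT box (CCAAT on either strand) stood in 76.5% of S and 84.2% of G2/M windows, against 37.9% of all. Among the G2/M members, 2 had both an E2F and a CHR word, Mki67 and Cdk1. These matches describe the letters in the windows and not bound sites. Each line below gives the 150 bases before the gene start, 5′ to 3′ on the gene's strand, with E2F and CHR words in capitals and overlapping words run together. Tyms has neither word there. The stretches lie at chr1:128359706-128359855 (minus strand) for Mcm6, chr17:56303187-56303336 (plus) for Uhrf1, chr5:30073626-30073775 (minus) for Tyms, chr7:135716380-135716529 (minus) for Mki67, chr10:69352913-69353062 (minus) for Cdk1, chr11:99024190-99024339 (minus) for Top2a, chr4:118437344-118437493 (minus) for Cdc20 and chr19:37376232-37376381 (plus) for Kif11.
Mcm6 (E2F words only): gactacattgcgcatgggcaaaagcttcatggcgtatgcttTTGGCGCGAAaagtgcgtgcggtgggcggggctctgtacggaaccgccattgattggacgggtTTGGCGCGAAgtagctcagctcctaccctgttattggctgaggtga
Uhrf1 (E2F word only): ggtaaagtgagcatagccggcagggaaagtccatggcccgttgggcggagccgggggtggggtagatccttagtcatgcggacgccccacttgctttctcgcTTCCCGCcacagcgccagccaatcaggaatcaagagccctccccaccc
Tyms (no match): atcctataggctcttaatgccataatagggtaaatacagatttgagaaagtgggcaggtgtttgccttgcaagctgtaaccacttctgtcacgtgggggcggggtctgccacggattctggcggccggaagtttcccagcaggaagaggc
Mki67 (E2F and CHR words): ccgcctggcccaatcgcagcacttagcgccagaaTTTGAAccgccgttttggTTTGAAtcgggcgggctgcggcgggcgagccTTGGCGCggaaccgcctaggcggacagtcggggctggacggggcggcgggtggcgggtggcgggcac
Cdk1 (E2F and CHR words): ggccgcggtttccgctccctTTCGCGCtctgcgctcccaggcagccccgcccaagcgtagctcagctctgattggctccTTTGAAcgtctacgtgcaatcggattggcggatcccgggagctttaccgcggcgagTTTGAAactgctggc
Top2a (CHR words only): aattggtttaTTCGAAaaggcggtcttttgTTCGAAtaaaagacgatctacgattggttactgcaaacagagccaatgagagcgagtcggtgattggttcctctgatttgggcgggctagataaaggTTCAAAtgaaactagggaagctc
Cdc20 (CHR word only): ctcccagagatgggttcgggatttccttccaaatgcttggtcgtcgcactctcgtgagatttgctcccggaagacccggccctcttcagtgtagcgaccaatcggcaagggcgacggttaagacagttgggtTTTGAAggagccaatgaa
Kif11 (CHR word only): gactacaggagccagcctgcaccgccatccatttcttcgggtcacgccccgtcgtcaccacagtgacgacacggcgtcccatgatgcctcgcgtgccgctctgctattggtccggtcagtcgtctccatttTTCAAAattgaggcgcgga

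Cells with at least 500 detected genes and at most 15% mitochondrial UMIs numbered 7440 in TWT, 9902 in DKO, 8148 in TKO and 7898 in IL-6 KO, and the libraries held between 61292684 and 85145074 UMIs. DKO cells were deeper than the rest, with a median of 7257.5 UMIs against 5144.5 to 5283.5. Barcodes that a library shared with another made up 0.772% to 0.856% of it. Diaph1, which encodes mDia1, had 163 and 178 CPM (counts scaled to the total UMIs of the cells) in TWT and IL-6 KO and 11.4 and 12.4 in DKO and TKO, as the labels state. Il6 went against 2 labels, with 52 and 20 UMIs in TWT and DKO but 587 and 606 UMIs in the libraries labelled TKO and IL-6 KO. No source used here says which part of Il6 the null allele removes, and 3′ reads from outside that part would check nothing. Xist, which is made from the inactive X chromosome of females, had 49030 UMIs in the IL-6 KO library and at most 7 in each of the others, and the labels do not give the sex of the mice. Values below follow the order TWT, DKO, library labelled TKO, library labelled IL-6 KO unless another order is given.

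Over all cells, every one of the 42 members was lower in DKO than in TWT. UMIs were summed over the cells and scaled to their total as CPM. A gene counted as measured with 50 CPM or more in 1 of the compared libraries and 30 UMIs or more across the pair, and was called when the CPM values stood at least 2-fold apart. By this rule 10 of the 14 measured S members and 13 of the 17 measured G2/M members were lower in DKO, and none was higher, where 9.57% of all 2842 genes measured were lower and 6.54% were higher. The median log2 ratio (pseudocount 1 CPM) was -1.47 over the S members and -1.24 over the G2/M members, against -0.06 over all genes measured. Summed over a whole library, fewer cells of a type and less RNA per cell cannot be told apart. Members were also lower in DKO than in the library labelled TKO, where 11 of 14 measured S and 14 of 18 measured G2/M members were called lower and none higher, beside 7.22% of all genes lower and 5.54% higher. Between the library labelled TKO and TWT no member was called, with 0.186% of all genes higher and 0.557% lower, and between the library labelled IL-6 KO and TWT no member was called, with 0.259% of all genes each way.

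The S members ranged widely in how far they fell. Uhrf1, which keeps DNA methylation on newly copied strands (ENSMUSG00000001228, GRCm38 chromosome 17, 56303321 to 56323486, plus strand), had 79.2, 12.3, 65.1 and 67.0 CPM. Its level in DKO was 0.156 of that in TWT (0.145 to 0.166), the lowest ratio of the 42. Mcm2, a subunit of the MCM helicase that opens the DNA, had 99.7, 21.9, 83.5 and 79.7 CPM. The other MCM subunits stood between 0.311 for Mcm5 (89.8, 27.9, 90.1 and 72.2 CPM) and 0.437 for Mcm4 (51.2, 22.4, 51.7 and 43.9 CPM) of their TWT level, so all 6 subunits were called lower. Pcna, the sliding clamp of the DNA polymerases, had 89.7, 35.4, 90.9 and 76.1 CPM. Cdca7, a partner of the chromatin remodeler Hells, had 66.8, 21.7, 69.1 and 71.2 CPM. The large and the small subunit of ribonucleotide reductase, which makes the deoxynucleotides for replication, parted. Rrm1, the large subunit, had 133, 31.5, 109 and 102.5 CPM, a ratio of 0.238. Rrm2, the small subunit (ENSMUSG00000020649, GRCm38 chromosome 12, 24708241 to 24714146, plus strand), had 115, 85.4, 141 and 101 CPM, a ratio of 0.740 (0.717 to 0.765). Rrm2 was 1 of 4 measured S members that missed the call. The other three were Tyms, thymidylate synthase (76.8, 45.3, 148 and 97.4 CPM), Slbp, which binds histone mRNA (136, 81.4, 147 and 130 CPM), and Rfc2, a subunit of the clamp loader (106, 71.0, 114 and 92.0 CPM). The 6 S members too low to be measured (Gins2, Cdc6, Dtl, Prim1, Hells and Cdc45) had ratios between 0.205 for Dtl and 0.555 for Cdc45.

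Among the G2/M members, Mki67, the proliferation antigen Ki-67 that coats mitotic chromosomes (ENSMUSG00000031004, GRCm38 chromosome 7, 135689784 to 135716361, minus strand), had 393, 85.7, 392 and 386 CPM. Its ratio of DKO to TWT was 0.218 (0.212 to 0.224), and the libraries other than DKO lay between 386 and 393 CPM. Kif11, the kinesin that pushes the spindle poles apart, had 86.7, 21.6, 77.9 and 92.5 CPM. Top2a, the topoisomerase that untangles sister chromatids, had 299, 86.5, 309 and 325 CPM. Cenpf, a kinetochore protein, had 132, 37.8, 127 and 135 CPM. These 4 fell to between 0.218 and 0.289 of their TWT level, as the plot of the members by library shows. The mitotic kinase and its cyclins fell less. Cdk1 had 118, 55.1, 135 and 110 CPM, Ccna2 (cyclin A2) had 80.6, 33.9, 91.8 and 72.8 CPM and Ccnb1 (cyclin B1) had 67.1, 28.5, 66.4 and 56.9 CPM. Ccnb2 (cyclin B2) had 92.8, 76.3, 109 and 80.8 CPM, and its ratio of 0.822 (0.794 to 0.852) was the highest of the 42. Of the other mitotic members, Ube2c, the ubiquitin-conjugating enzyme of the anaphase-promoting complex, had 297, 130, 332 and 295 CPM and Cks2, a Cdk-binding protein, had 339, 157, 324 and 338 CPM. The measured members that missed the call besides Ccnb2 were Birc5 (survivin; 216, 110, 229 and 202 CPM), Cdc20 (81.2, 47.9, 83.3 and 69.4 CPM) and Hmgb2. Hmgb2, a chromatin protein that non-dividing cells also make, had 2456, 1570, 2103 and 2380 CPM, and 84.8% to 93.5% of mature neutrophil-gated cells held a UMI of it after the thinning described below.

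**Figure D1:**
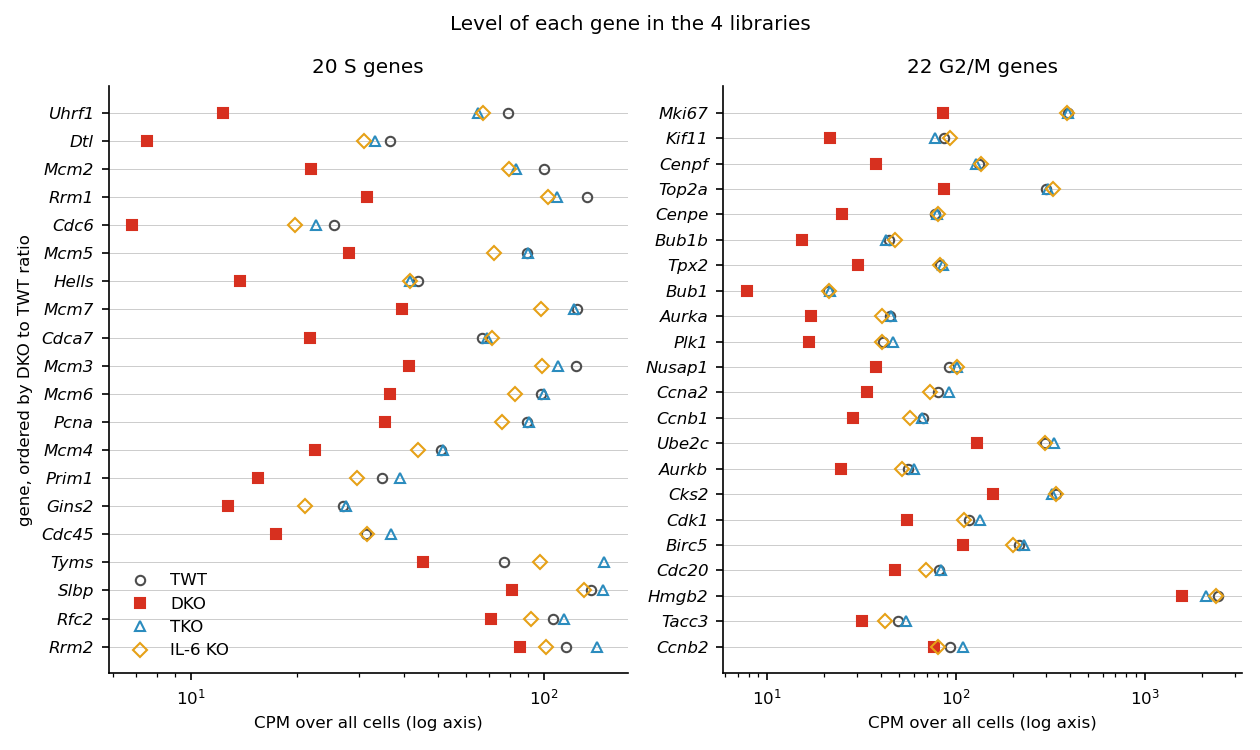
The plot shows the level of each of the 42 genes in each library, as CPM over all cells on a log axis, with S genes on the left and G2/M genes on the right, ordered by the ratio of DKO to TWT. The DKO square lies left of the TWT circle for every gene, from Uhrf1 (79.2 to 12.3 CPM) and Mki67 (393 to 85.7 CPM) at the top to Rrm2 and Ccnb2 at the bottom, and Tyms is the gene whose TKO triangle stands farthest to the right of TWT.

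A summed level is weighted toward cells with many UMIs, so cells were also counted. Each cell was thinned at random to 2000 UMIs, which left out 871, 526, 842 and 742 shallower cells, and was called dividing when at least 3 of the 20 S members or at least 3 of the 22 G2/M members kept a UMI. The call rests on the members' own UMIs and is not a measure of division itself. By this call 28.2% of TWT cells (27.2 to 29.3, 1855 of 6569), 17.2% of DKO cells (16.4 to 17.9, 1609 of 9376), 29.6% in the library labelled TKO (28.5 to 30.7, 2162 of 7306) and 26.4% in the library labelled IL-6 KO (25.4 to 27.4, 1890 of 7156) were dividing. DKO stood at 0.608 of TWT (0.5681 to 0.6500) and at 0.580 of the library labelled TKO (0.543 to 0.619). The libraries labelled TKO and IL-6 KO stood at 1.05 (0.984 to 1.12) and 0.935 (0.877 to 0.998) of TWT. Mature neutrophils, which no longer divide, give a background of the call, and 2.87%, 1.07%, 1.94% and 2.42% of them passed it, at median depths of 2945, 5585.5, 3103 and 3010.5 UMIs. Mature B-gated cells, set as the other background, passed it more often in every library, with shares given below. Without thinning the libraries stood close, with 36.0%, 33.8%, 36.0% and 35.9% of cells called, so that the DKO share was 0.938 of the TWT share. The mean of each cell's CPM, which weights cells equally, called 7 members lower in DKO than in TWT in place of 23, beside 6.87% of all genes.

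The study left out cells with more than 4000 detected genes. They made up 8.68% of TWT, 2.78% of DKO, 7.22% of TKO and 5.34% of IL-6 KO cells, and 97.5% of them in TWT (630 of 646), 73.5% in DKO (202 of 275), 99.0% in TKO and 97.6% in IL-6 KO were called dividing. The limit therefore removes 34.0% of the dividing cells of TWT but 12.6% of those of DKO, 26.9% of those labelled TKO and 21.8% of those labelled IL-6 KO. With it in place, 20.7%, 15.5%, 23.5% and 21.9% of cells were dividing, DKO stood at 0.747 of TWT, and the library labelled IL-6 KO moved from below to above TWT, at 1.06. The members called lower in DKO than in TWT dropped from 23 to 8 (Mcm7, Rrm1, Mki67, Top2a, Cenpe, Cenpf, Tpx2 and Kif11), beside 5.42% of all genes. Against the library labelled TKO, 8 S and 10 G2/M members were still lower, beside 5.71% of all genes. Of the 73 gene-rich DKO cells that were not dividing, 31 carried non-classical monocyte markers and 19 monocyte markers. Dividing cells were deeper than the others in every library, with a median of 16602 against 4597.5 UMIs in TWT and 15533 against 6739 in DKO. Doublet calls were 2.86% of dividing and 2.69% of other cells in TWT, and 3.11% and 2.11% in DKO, and leaving the doublets out kept every ratio of shares and every count of called members within its limits.

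Of the dividing cells, those called by both lists made up 49.4%, 34.3%, 54.7% and 47.3%, those called by the G2/M list alone 37.5%, 49.97%, 32.3% and 38.7%, and those called by the S list alone 13.1%, 15.7%, 12.95% and 14.0%. DKO had the lowest share with both and the highest with G2/M alone. Close to the threshold, 15.04% to 18.9% of cells had 2 members of a list as their most and 3.42% to 3.87% had 3. Over all classes together, members of each list were also higher in cells called by the other list. Class makeup was not held fixed here, and its part was not tested. In cells called by the G2/M list, the level of Rrm2 was 12.7 to 16.2 times that of the other cells, Tyms 9.34 to 12.0 times and Rrm1 7.99 to 11.2 times across the 4 libraries, and Rfc2 was the least raised S member at 1.768 to 1.965 times. In cells called by the S list, Mki67 was 3.42 to 4.13 times and Top2a 3.30 to 5.65 times as high, and Ube2c was 1.58 to 2.10 times.

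Each cell was then placed in 1 of 19 classes by its own marker UMIs, and a class is named by its markers, as in monocyte-gated cells. The markers of a class were at least 2-fold higher in it for 6 of 8 markers of DKO monocyte-gated cells and for 8 of 8 in the other 3 libraries, and for all markers of the granulocyte-monocyte progenitor, neutrophil and erythroid classes in every library. Granulocyte-monocyte progenitor-gated (GMP-gated) cells, the Mpo- and Elane-expressing source of neutrophils and monocytes, were nearly all dividing in every library, at 97.4%, 96.3%, 98.0% and 96.6% of 428, 464, 549 and 415 cells. Immature neutrophil-gated cells, which make the secondary granule proteins, were dividing at 31.3%, 29.7%, 31.1% and 31.2% of 1680, 2207, 1948 and 1899 cells. In these classes the counting intervals of the ratio of DKO to TWT included 1, at 0.989 (0.863 to 1.13) and 0.948 (0.844 to 1.07). These intervals treat the counts as rates and are wider than the shares allow where nearly all cells are called. In GMP-gated cells the call was near its upper limit in every library, so the share could show little difference. In immature neutrophil-gated cells a difference was not detectable at this number of cells.

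Monocyte-gated cells differed. In TWT 39.3% of them were dividing (35.5 to 43.1, 252 of 642), in DKO 14.0% (12.4 to 15.7, 243 of 1741), in the library labelled TKO 39.8% (274 of 688) and in the library labelled IL-6 KO 32.6% (184 of 564). The DKO share was 0.356 of the TWT share (0.297 to 0.426). The class itself was larger in DKO, at 18.6% of cells against 9.77%, 9.42% and 7.88% in the others. Counted against the whole library, dividing monocyte-gated cells were 3.84%, 2.59%, 3.75% and 2.57% of all cells, and the intervals of DKO (2.28 to 2.93) and of the library labelled IL-6 KO (2.22 to 2.96) overlapped. Median depths of monocyte-gated cells were 8401, 10038, 8331 and 7311 UMIs, and the part of depth in the shares was not tested. Without thinning 61.7%, 45.6%, 58.8% and 53.8% were called, a DKO share at 0.739 of that in TWT. With at most 4000 genes the shares were 28.3%, 10.7%, 31.0% and 28.2%. Non-classical monocyte-gated cells, a blood-patrolling type, were most numerous in DKO (1705 cells at the thinned depth against 40, 110 and 64). Among them the call passed 4.22% of DKO cells, 10.0% of those labelled TKO and 3.13% of those labelled IL-6 KO. It passed 0 of 40 cells of TWT, which allows a share of up to 7.50% (3 counts of the total). Whether these shares exceed the background of mature B-gated cells, given below, was not tested, so they are not read as division. With both monocyte classes joined, 37.0%, 9.14%, 35.7% and 29.6% were called dividing, which is 3.84%, 3.36%, 3.90% and 2.60% of the libraries. The same limit holds for the non-classical part of these.

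**Figure D2:**
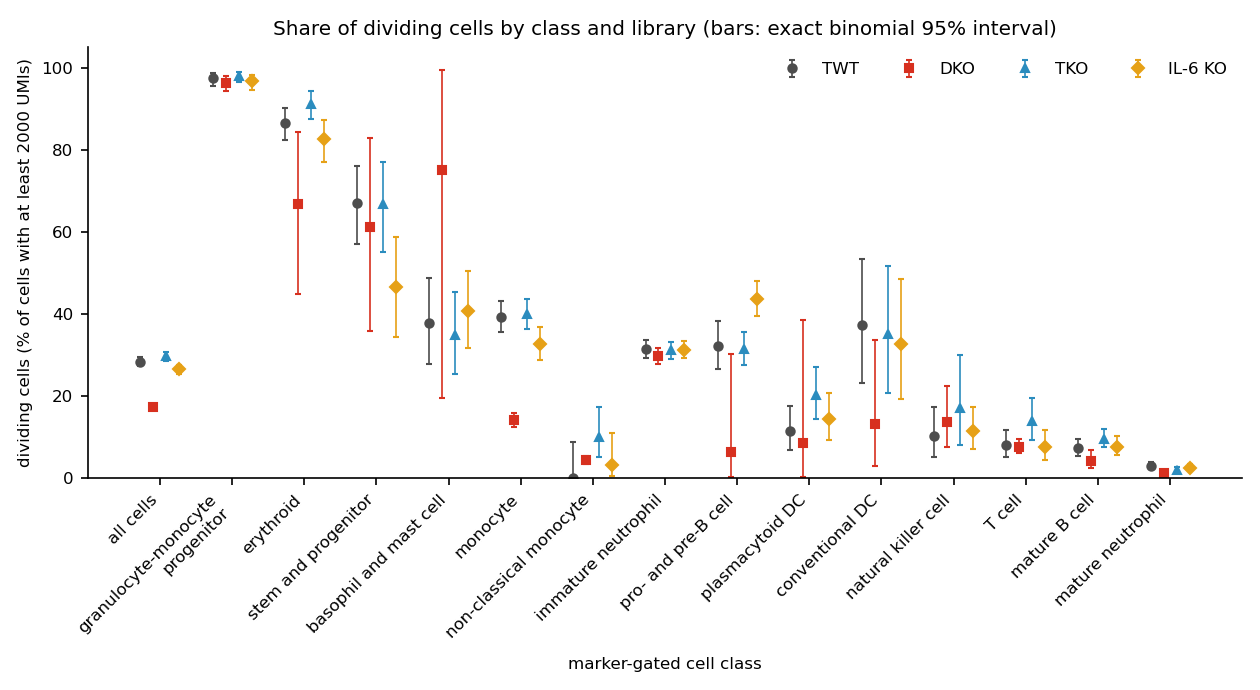
The plot shows the share of dividing cells in percent of cells with at least 2000 UMIs, for all cells and for each class by marker genes, with 1 point per library and bars for the exact binomial 95% interval. DKO lies below the other 3 libraries over all cells (17.2%) and in monocyte-gated cells (14.0%), and beside them in GMP-gated and immature neutrophil-gated cells. The wide DKO bars of several classes come from few cells.

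Erythroid-gated and pro- and pre-B-gated cells were few in DKO, with 24 and 22 cells kept. Of the 22 pro- and pre-B-gated cells, 14 (63.6%) stood close to a second class by marker score, against 7.32% to 9.20% in the other libraries. Dividing erythroid-gated cells were 4.22% of TWT, 0.171% of DKO, 3.70% of TKO and 2.70% of IL-6 KO cells. Among the erythroid-gated cells that were present, 86.6% (277 of 320), 66.7% (16 of 24), 91.2% and 82.5% were dividing. Dividing pro- and pre-B-gated cells were 1.26%, 0.0107%, 2.31% and 3.45% of the libraries, with 32.0% (83 of 259), 1 of 16, 31.5% and 43.6% (247 of 566) of their class dividing. The last share was the highest of the class and came from the library labelled IL-6 KO. The call passed 7.99%, 7.52%, 13.7% and 7.49% of T cell-gated cells and 7.24%, 4.13%, 9.41% and 7.58% of mature B-gated cells, most of them by the S list alone. Mature B-gated cells were set as a background of the call, so their shares are not read as division. Whether the T cell-gated shares exceed that background was not tested.

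The makeup of the dividing cells differed accordingly. Immature neutrophil-gated cells were 28.4%, 40.7%, 28.0% and 31.4% of them and GMP-gated cells 22.5%, 27.8%, 24.9% and 21.2%. Erythroid-gated cells were 14.9%, 0.994%, 12.5% and 10.2%, and monocyte-gated cells 13.6%, 15.1%, 12.7% and 9.74%. To separate makeup from division within classes, the class shares of TWT were given to every library over the 16 classes with at least 10 cells in each. The unassigned cells were counted as a class among these. The dividing share was then 27.9%, 22.2%, 29.0% and 27.3%. The DKO ratio to TWT rose from 0.608 to 0.796 (0.743 to 0.854), and the libraries labelled TKO and IL-6 KO stood at 1.04 (0.996 to 1.08) and 0.978 (0.936 to 1.02). With the class shares of DKO as weights the DKO ratio was 0.792.

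**Figure D3:**
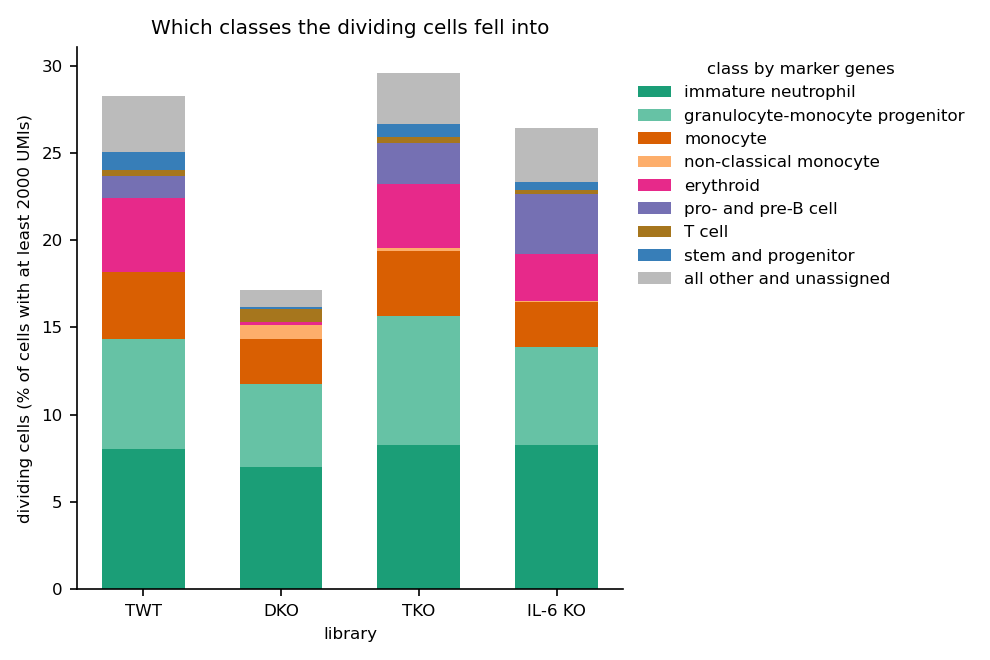
The stacked bars show dividing cells as a percent of all cells with at least 2000 UMIs in each library, split by marker-gated class. The DKO bar reaches 17.2% and holds almost no erythroid-gated (0.171%) or pro- and pre-B-gated cells (0.0107%). Its immature neutrophil-gated part (6.99%) lies somewhat below those of the other libraries (8.01% to 8.29%).

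Summed levels were then compared within classes. In monocyte-gated cells, 12 of 12 measured S members and 19 of 20 measured G2/M members were lower in DKO than in TWT, where 11% of all genes measured were lower. The medians were -1.75 and -1.88 on the log2 scale, against -0.19 over all genes. Against the library labelled TKO, 12 of 12 and 20 of 21 were lower, beside 9.67% of all genes. Mki67 had 507, 78.9, 447 and 478 CPM in these cells and was seen in 30.1%, 6.72%, 27.6% and 24.1% of them after thinning, where mature neutrophil-gated cells had 0.18% to 1.42%. Top2a had 376, 55.3, 363 and 391 CPM, Kif11 116, 14.3, 103 and 114 CPM, and Nusap1, a spindle microtubule protein, 142, 21.96, 121 and 122 CPM. Uhrf1 had 58.8, 6.59, 50.3 and 40.1 CPM, a ratio of 0.112 (0.0909 to 0.137), and Mcm5 had 87.4, 19.6, 104 and 70.8 CPM. Here even Hmgb2 fell past the threshold, with 3351, 1141, 2552 and 2898 CPM. Ccnb2 was the measured member that was not called, with 157, 82.1, 157 and 101.7 CPM.

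Cells were also counted by how many members they held. After thinning, monocyte-gated cells with none of the 42 members were 5.30%, 18.4%, 9.45% and 6.38%, and those with 15 or more were 7.79%, 0.747%, 10.5% and 6.03%. At 15 or more, DKO was also the lowest in immature neutrophil-gated cells (2.92%, 1.495%, 2.93% and 2.37%) and in GMP-gated cells (3.97%, 1.94%, 5.46% and 4.82%), on 33 and 9 DKO cells. Within the monocyte-gated cells called dividing, which the members themselves selected, 3 of 15 measured S members (Mcm2, Uhrf1 and Cdca7) and 6 of 22 G2/M members (Mki67, Top2a, Cenpf, Nusap1, Aurkb and Kif11) were still lower in DKO than in TWT, beside 10.4% of all genes. Mki67 had 896, 356, 789 and 980 CPM there and Top2a 673, 255, 645 and 811 CPM. The monocyte-gated cells not called dividing were chosen for few members, so low levels were largely fixed in advance. Of the 42 members, 3 were measured there and none was called, where 8.44% of all genes were lower and 3.39% higher.

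**Figure D4:**
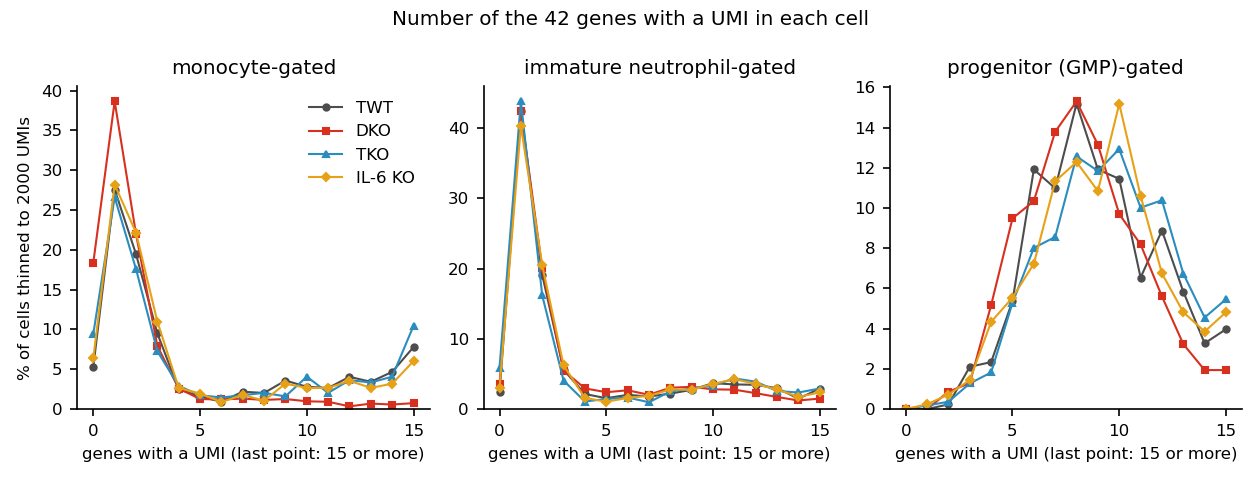
The lines show the percent of thinned cells against the number of the 42 genes with a UMI, from 0 to 15 or more, in monocyte-gated, immature neutrophil-gated and GMP-gated cells, with 1 line per library. In monocyte-gated cells DKO lies highest at 0 (18.4%) and lowest at 15 or more (0.747%), and it is also the lowest at 15 or more in immature neutrophil-gated (1.495%) and GMP-gated cells (1.94%).

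In GMP-gated cells of DKO the summed S members stood beside TWT and the summed G2/M members below it. The summed S members had 2216, 2214, 2457 and 2131 CPM, a ratio of 0.999, and the G2/M members without Hmgb2 had 3072, 2463, 3221 and 3291 CPM, a ratio of 0.802. Of 18 measured S members, Uhrf1 was lower (87.4, 41.96, 64.1 and 72.9 CPM, ratio 0.480), where 6.47% of all genes were lower. Rrm2 was higher (148, 352, 227 and 138 CPM, ratio 2.37), where 2.93% were higher. Each is 1 of 18, too few to set apart from these backgrounds, so no result about the members is read from the counts. None of 19 measured G2/M members was called. Mki67 had 304, 163, 280 and 320 CPM and Ccnb2 106, 180, 147 and 97.1 CPM in these cells, ratios of 0.536 and 1.70 that lie on opposite sides of 1.

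In immature neutrophil-gated cells the share of dividing cells was level across libraries but some members were not. None of 5 measured S members was called in DKO against TWT, and 4 of 15 measured G2/M members were lower, beside 3.05% of all genes lower and 3.54% higher. Mki67 had 338, 135, 340 and 352 CPM, Kif11 91.0, 39.8, 75.0 and 89.5 CPM, Cenpe (a kinetochore motor) 78.3, 37.6, 74.7 and 75.8 CPM, and Cenpf 141, 70.1, 128 and 137 CPM. Rrm2 had 84.1, 118, 103 and 79.9 CPM and Ccnb2 85.3, 108, 95.7 and 79.9 CPM, both above TWT in DKO without passing the call. Over all dividing cells, Mki67 had 706, 264, 679 and 761 CPM, Rrm2 206, 272, 245 and 199 CPM and Ccnb2 161, 217, 185 and 153 CPM. In that set, chosen by the members, 6 of 18 S members (Mcm2, Pcna, Uhrf1, Rrm1, Dtl and Hells) and 3 of 21 G2/M members (Mki67, Cenpf and Kif11) were lower in DKO, beside 13.2% of all genes. The G2/M count is near that background, so no result about the members is read from it.

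Tyms stood apart from the other members in the library labelled TKO. It makes the thymidine nucleotide for DNA synthesis (ENSMUSG00000025747, GRCm38 chromosome 5, 30058202 to 30073617, minus strand). In GMP-gated cells it had 127, 164, 274 and 204 CPM, a ratio of TKO to TWT of 2.16 (2.03 to 2.30), and it was the 1 member called higher, where 0.154% of all genes were. In immature neutrophil-gated cells it had 45.8, 51.6, 113 and 83.6 CPM (ratio 2.47, beside 0.305% of all genes) and in monocyte-gated cells 90.0, 30.5, 209 and 140 CPM (ratio 2.32, beside 0.193%). In pro- and pre-B-gated cells it had 71.7, 67.6, 150 and 137 CPM (ratio 2.09, beside 0.391%). The exception was the erythroid-gated cells, with 181, 188, 188 and 151 CPM and a ratio of 1.03 (0.961 to 1.11). The library labelled IL-6 KO was also above TWT, at 1.61 times in GMP-gated (1.501 to 1.73), 1.82 times in immature neutrophil-gated (1.67 to 1.99), 1.56 times in monocyte-gated (1.40 to 1.74) and 1.91 times in pro- and pre-B-gated cells, and at 0.833 times in erythroid-gated cells. Tyms thus stood higher in both libraries labelled IL6-/- than in TWT in these classes other than the erythroid class, and was called in the library labelled TKO. On GRCm38 the gene lies 38.2 kb from Il6, the gene those labels name as deleted.

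**Figure D5:**
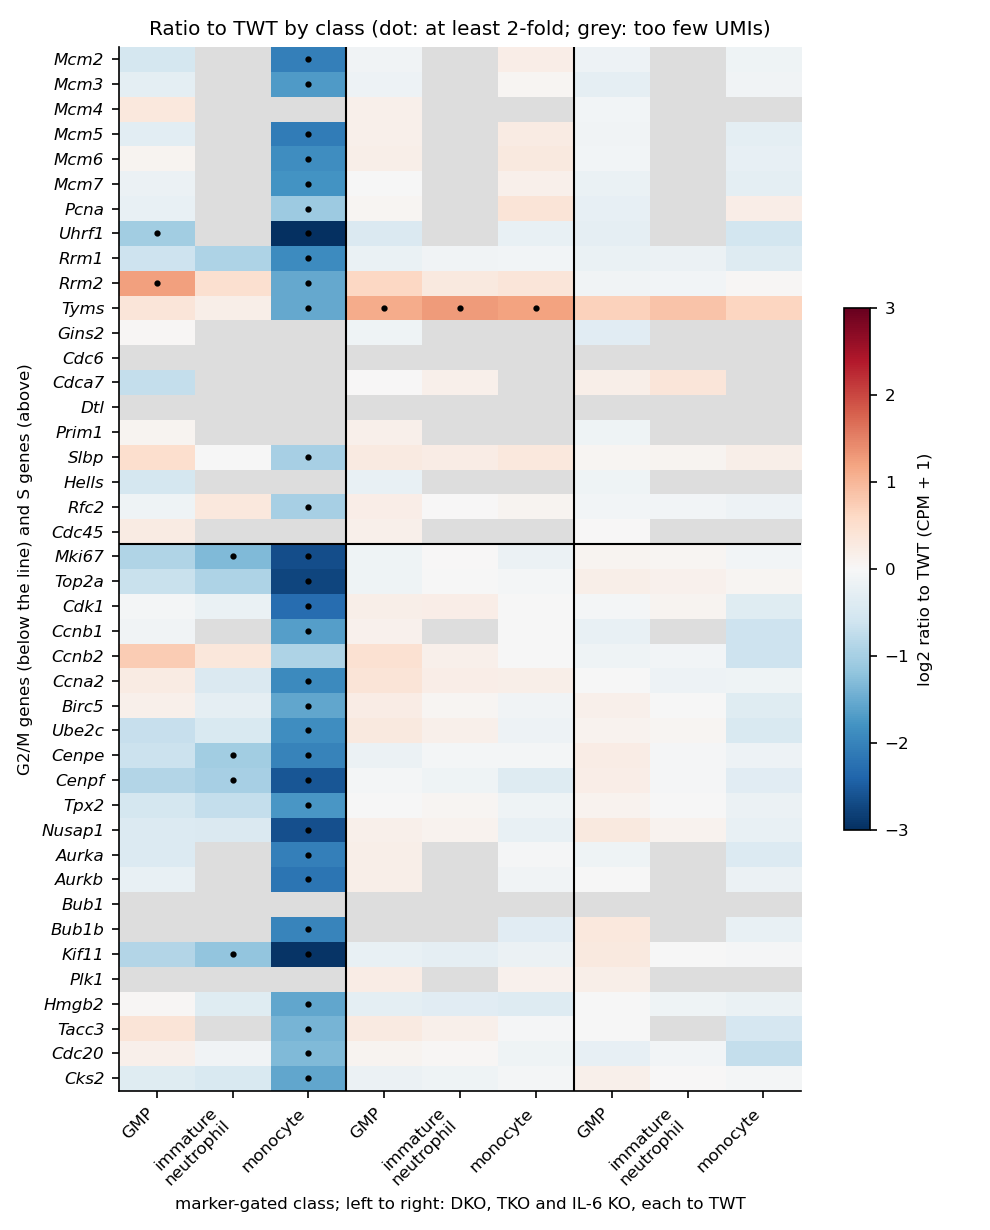
The colors show the log2 ratio to TWT (CPM plus 1) of each of the 42 genes in GMP-gated, immature neutrophil-gated and monocyte-gated cells, with the DKO, TKO and IL-6 KO libraries in blocks from left to right, a dot for a gene at least 2-fold apart and grey for a gene below the minimum of UMIs or CPM. The monocyte column of DKO is blue throughout where measured, Rrm2 in DKO GMP-gated cells is the darkest red of that block, and Tyms carries the only dots of the TKO block.

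Other cell cycle genes came from 4 lists that share no gene with the 42, and their counts in DKO against TWT over all cells stand beside the 9.57% of all genes lower and 6.54% higher. Of 13 measured other replication genes, 8 were lower and none higher, among them Cdt1, the licensing factor that loads the MCM helicase (57.9, 15.7, 44.5 and 44.4 CPM), Rpa3, a subunit of the single-strand binding protein (80.0, 26.4, 49.7 and 67.2 CPM), and Clspn, a checkpoint adaptor (55.0, 18.1, 49.0 and 45.6 CPM). Of 13 measured other mitosis genes 9 were lower and 1 higher, with the lower ones including the condensin subunit Ncapd2 (61.3, 11.3, 52.6 and 56.5 CPM) and the midzone protein Prc1 (91.6, 28.0, 89.0 and 95.8 CPM). Of 6 measured G1 cyclins, kinases and E2F factors, 3 were lower, namely Cdk6 (109, 37.7, 89.8 and 85.6 CPM), Cdk4 (116, 54.9, 129 and 90.6 CPM) and E2f4 (58.0, 28.9, 49.8 and 41.8 CPM). None of 5 measured cell cycle inhibitors was called. Of these, Cdkn2d (p19, an inhibitor of Cdk4 and Cdk6) had 171, 289, 204 and 186 CPM, Cdkn1b (p27) 60.1, 78.6, 60.1 and 84.2 CPM and Trp53 (p53) 72.9, 41.9, 66.6 and 64.2 CPM.

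Since these genes were not used to call a cell dividing, they also check the call. In monocyte-gated cells the other mitosis genes were 17.2 to 21.7 times and the other replication genes 5.30 to 8.62 times higher in dividing than in other cells across the 4 libraries, and the inhibitors were at 0.847 to 0.977. In immature neutrophil-gated cells these values were 19.998 to 31.0, 12.0 to 17.5 and 1.07 to 1.17. In GMP-gated cells the other mitosis genes were 1.86 to 2.22 times as high in dividing cells and the other replication genes stood at 0.913 to 1.05 of the level in other cells, with the inhibitors at 0.977 to 1.65 and 11 to 17 cells per library left as not dividing. The call thus did not part GMP-gated cells by the other replication genes, and their share called is not read as a share of cycling cells.

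The single gene of these lists called higher in DKO than in TWT over all cells was Pttg1, securin of the mitosis list, which holds sister chromatids together until anaphase (ENSMUSG00000020415, GRCm38 chromosome 11, 43420250 to 43426251, minus strand). It had 25.6, 84.0, 103 and 24.0 CPM over all cells, so it was high in the DKO and TKO libraries and low in both with intact mDia1 and miR146a. In GMP-gated cells it had 28.1, 176, 157 and 22.7 CPM, in immature neutrophil-gated cells 9.41, 90.6, 79.1 and 7.48 CPM and in monocyte-gated cells 35.7, 89.1, 139 and 35.6 CPM. The gene lies 45.8 kb from Mir146, the gene of miR146a. Of the 42 members, 5 lie on the chromosome of Il6 and 4 on that of Mir146.

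Natural killer-gated cells, a cytotoxic lymphocyte class of 113, 97, 56 and 174 cells, went against the general order. In the library labelled TKO, 5 of 8 measured G2/M members (Mki67, Top2a, Cdk1, Birc5 and Kif11) were higher than in TWT, beside 3.75% of all genes measured. Mki67 had 64.7 CPM (45.1 to 90.0, from 35 UMIs) in TWT, 26.9 CPM (14.3 to 46.0) in DKO, 291 CPM (236 to 355, from 97 UMIs) in the library labelled TKO and 31.7 CPM (20.1 to 47.5) in the IL-6 KO library. Top2a had 61.0, 18.6, 222 and 30.3 CPM. Dividing cells were 10.1%, 13.7%, 17.0% and 11.4% of the class, shares that rest on 109, 95, 53 and 167 cells. They numbered 11, 13, 9 and 19. The summed levels of these genes can thus rest on a few cells, which the counting intervals do not cover.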

How the data were processed

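The authors made the libraries with the Chromium Single Cell 3′ v3 kit and processed the reads with Cell Ranger (3.0.2 in the matrix headers) against mm10, and Seurat 4 is named for their analysis. The deposited values are raw UMI counts per gene and barcode for 8423, 10866, 9013 and 8640 barcodes. The members and gene lists were chosen with earlier results of these data known. Barcodes with at least 500 genes and at most 15% mt- UMIs were kept, with no upper limit on genes, and the 4000-gene limit of the study was an alternative. Calls were made by fold and not by a test, because each genotype has 1 library. Shares have exact Clopper-Pearson and sums exact Poisson 95% intervals. Cells were gated into 19 classes by the mean z-score of marker genes over the 4 libraries (at least 0.5, with at least 2 markers detected), and unassigned cells stayed in the totals. No cells were removed as doublets, which Scrublet in scanpy 1.11.5 put at 2.19% to 2.45% of cells. Other alternatives were the thinning depth, the members needed, the fold, the gate, the weights, the normalization, the pseudocount and the filter. All 42 members could be named, along with the 3 genes of each other list with the largest log2 ratio of DKO to TWT over all cells among those measured. The fold rule and the thinning were tested on simulated data. Python 3.11.15, numpy 2.4.6, scipy 1.17.1, pandas 2.3.3 and matplotlib 3.10.9 were used.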

Additional observations from a re-analysis of the deposited data

Results flagged for a closer look

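Barcodes that failed the filter on genes or mitochondrial UMIs, which no comparison used, also held UMIs of the 42 members. Their summed level was 1395 CPM in 983 barcodes of TWT, 1597 CPM in 964 barcodes of DKO, 1072 CPM in 865 barcodes of the library labelled TKO and 1298 CPM in 742 barcodes of the library labelled IL-6 KO. With no control samples, a level was listed when it stood above the limit that a count of 0 allows, which lay between 1.62 and 2.96 CPM. In the cells kept, the same sum was 6756, 3293, 6555 and 6439 CPM.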

How the results depend on the processing

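With 1 library per genotype no library could be left out, and no spread between libraries is known. No paired analysis was possible because each genotype has a single library. The ratio of dividing shares of DKO to TWT, 0.608 as reported, was 0.747 without cells above 4000 genes, 0.740 and 0.503 when 2 or 5 members were needed, 0.550 at 1000 UMIs, 0.938 without thinning and 0.487 with S members only. Under the same 6 settings, in this order, the ratio of DKO to the library labelled TKO was 0.657, 0.746, 0.464, 0.519, 0.939 and 0.429. The ratio of the library labelled TKO to TWT moved to 1.14 without cells above 4000 genes and to 1.13 with S members only. That of the library labelled IL-6 KO to TWT reversed to 1.06 without cells above 4000 genes and to 1.01 with 2 members, and was 0.998 without thinning. The cause of these changes was not tested. In monocyte-gated cells the DKO ratio was 0.559 with 2 members, 0.271 with 5, 0.266 at 1000 UMIs, 0.482 at 4000 UMIs, 0.739 without thinning and 0.228 with S members only. Standardized to the classes of TWT, the DKO ratio was 0.705 with 5 members, 0.722 at 1000 UMIs, 0.883 at 4000 UMIs, 0.927 without thinning and 0.737 with S members only. The standardized ratio of the library labelled TKO was 0.983 with 2 members, 1.14 with S members only and 1.15 with DKO weights. That of the library labelled IL-6 KO was 1.03 without cells above 4000 genes, 1.04 without thinning and 1.04 with DKO weights. Over all cells, members lower in DKO than in TWT numbered 8 without cells above 4000 genes, 11 at 3-fold and 7 with the mean of each cell's CPM, in place of 23. Beside these, 5.42%, 3.17% and 6.87% of all genes measured were lower, in place of 9.57%. Members lower in DKO than in the library labelled TKO numbered 12 at 3-fold and 10 with the mean of each cell's CPM, in place of 25. Of all genes measured, 2.72% and 7.14% were lower there, in place of 7.22%. Higher in the library labelled TKO than in TWT was 1 member without cells above 4000 genes (beside 0.161% of all genes) and 1 at 1.5-fold (beside 0.705%), in place of 0. In monocyte-gated cells it was 0 at 3-fold (beside 0.0321%) in place of 1. In monocyte-gated cells of the library labelled IL-6 KO, 3 members were lower and 1 higher than in TWT at 1.5-fold, in place of 0, beside 1.3% of all genes lower and 1.59% higher. The median log2 ratio of the 42 members in the library labelled IL-6 KO to TWT reversed without cells above 4000 genes, from -0.12 to 0.071 over all cells and from -0.21 to 0.20 in monocyte-gated cells. Of 271 alternatives of all results, 163 of the main results and 50 of the others stayed within their limits. A ratio that crossed 1 inside an interval that included 1 was counted among these. Of the rest, 42 of the main results and 12 of the others moved, and 2 of each reversed.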
